A study of Mus musculus with 10 samples.

Results

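Transcript levels of 37 DNA repair genes were compared between the lungs of mice given arsenic and those of control mice. The genes were a list given by name, from the excision, mismatch, double-strand break and direct reversal pathways of repair. Each was read by the probe set with its highest mean over the 10 arrays whose platform annotation gives that gene symbol and no other. All 37 had such a probe set, among 18194 genes on the array. 31 of them, and 11333 genes in all, had a probe set above the median of the whole table (4.20 on the log2 scale) on at least 5 of the 10 arrays, the filter used for every test. The other 6 were too dim for it.

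The mice were female C57BL/6, an inbred laboratory strain, with no genetic change named in the labels, and were 8 weeks old at the start. 5 of them drank water with arsenic at 50 ppm for 12 weeks, and 5 control animals drank deionized water. The series names the compound as arsenate and the treatment field of the exposed samples as arsenite, so it is called arsenic here. Each animal gave 1 Affymetrix Mouse430_2 array of whole-lung RNA, in which fewer cells of a type and less RNA per cell cannot be told apart.

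As background, nucleotide excision repair cuts out a short stretch of DNA around bulky lesions such as those left by ultraviolet light, whereas base excision repair removes a single damaged base and seals the gap. Mismatch repair corrects copying errors, and double-strand breaks are joined end to end or repaired from the sister chromatid after kinases such as ATM and ATR have signalled the damage. Arsenic is known to raise oxidative DNA damage and to interfere with zinc-finger repair proteins such as XPA and PARP1, an effect on the proteins that transcript levels do not measure.

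The sequences upstream of these genes were searched for common promoter motifs. Of the 36 promoter entries that RefSeq (GRCm38.p6) gives for 32 of the 37 genes, 26 (72.2%) were rich in CpG over the 250 bases before the start, meaning G and C together above 50 percent and CpG at over 0.6 of the number expected from base composition. This held for 30.8% of all 32851 promoters of that table. Among genes past the filter it held for 22 of 29 promoters of the listed genes (75.9%) and for 59% of all 11820. The GC box GGGCGG, searched on both strands, was in 22 of the 36 (61.1%), against 32.7% of all promoters, and among genes past the filter in 19 of 29 (65.5%), against 57.2%. The motif CCAAT was in 18 of the 36 (50%), against 33.8%, and in 17 of the 29 (58.6%), against 34.2%. TATAAA was in 2 of the 36 (5.56%), against 12.4%, and in 1 of the 29 (3.45%), against 6.76%. These shares are descriptions, with no test. No entry was found for Ercc3, Xpc, Ddb2, Polb and Prkdc. A match is a description of the letters and not a bound site. The 2 promoters below belong to Atr, which had the largest difference of the 31 measured genes, and Parp1, which had the narrowest interval. They run 5′ to 3′ on the gene's strand and end at the base before the start (Atr at chr9:95857347-95857596, Parp1 at chr1:180568641-180568890, both on the plus strand), with GC boxes of either strand in capitals.
Atr: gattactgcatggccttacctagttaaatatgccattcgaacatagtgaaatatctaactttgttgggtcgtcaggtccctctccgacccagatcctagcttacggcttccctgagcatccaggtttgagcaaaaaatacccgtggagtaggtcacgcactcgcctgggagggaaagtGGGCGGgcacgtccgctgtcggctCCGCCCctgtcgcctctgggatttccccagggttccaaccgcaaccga
Parp1: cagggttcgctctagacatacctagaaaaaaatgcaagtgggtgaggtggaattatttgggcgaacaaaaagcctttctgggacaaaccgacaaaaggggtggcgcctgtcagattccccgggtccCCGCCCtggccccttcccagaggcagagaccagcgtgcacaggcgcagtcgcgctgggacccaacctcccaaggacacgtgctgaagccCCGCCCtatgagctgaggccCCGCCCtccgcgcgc
Atr held 2 GC boxes, beginning 72 and 48 bases before the start, and Parp1 held 3, beginning 124, 35 and 15 bases before it.

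No DNA repair gene of the list passed the test for a difference between arsenic and control lungs. With limma and Benjamini-Hochberg adjustment over all genes, 0 of 31 had an adjusted p under 0.05, where 0.476% of all 11333 genes did. At an unadjusted p under 0.05 the count was also 0 of 31, where 15.7% of all genes had one. In none of the 31 did the 5 arsenic values lie wholly above or below the 5 control values, which held for 3.63% of all genes, 2.82% above and 0.803% below. Differences ran from -0.47 (Atr) to 0.21 (Xrcc6) on the log2 scale, arsenic minus control. Their median was 0.045, beside 0.057 over all genes tested, and 18 of 31 (58.1%) were positive, beside 63.2% of all genes.

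The precision of these differences was fine enough to bound most of them. The 95% interval of the difference lay wholly inside a 2-fold change in either direction for 30 of the 31 genes (96.8%) and for 94.6% of all genes tested. It lay inside a 1.5-fold change for 29 of the 31 (93.5%) and for 76.0% of all genes. Atr was outside both bounds and Atm outside the 1.5-fold bound. The bounds hold for these arrays, whose number limits the precision, and for the brightest probe set of each gene only. Other probe sets past the filter had larger differences for some genes inside the bounds. These were Polb (-1.61 and -0.85), Mpg (0.75), Rad23b (-0.73) and Ercc8 (0.58).

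**Figure D1:**
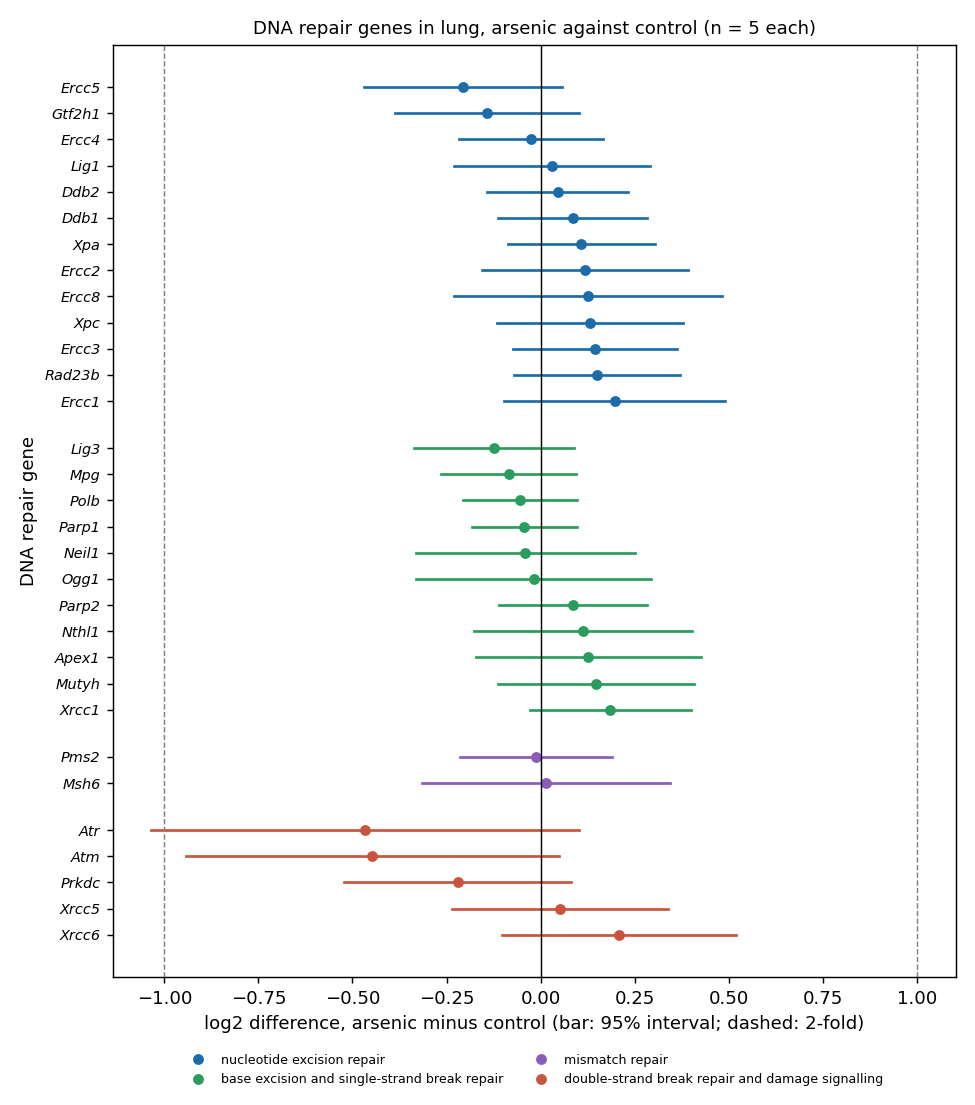
Log2 difference between arsenic and control lungs for the 31 DNA repair genes past the filter, grouped by pathway and ordered within it; points are differences, bars are 95% intervals from limma, and dashed lines mark a 2-fold change. All 31 intervals span 0, and that of Atr reaches to -1.03.

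**Figure D2:**
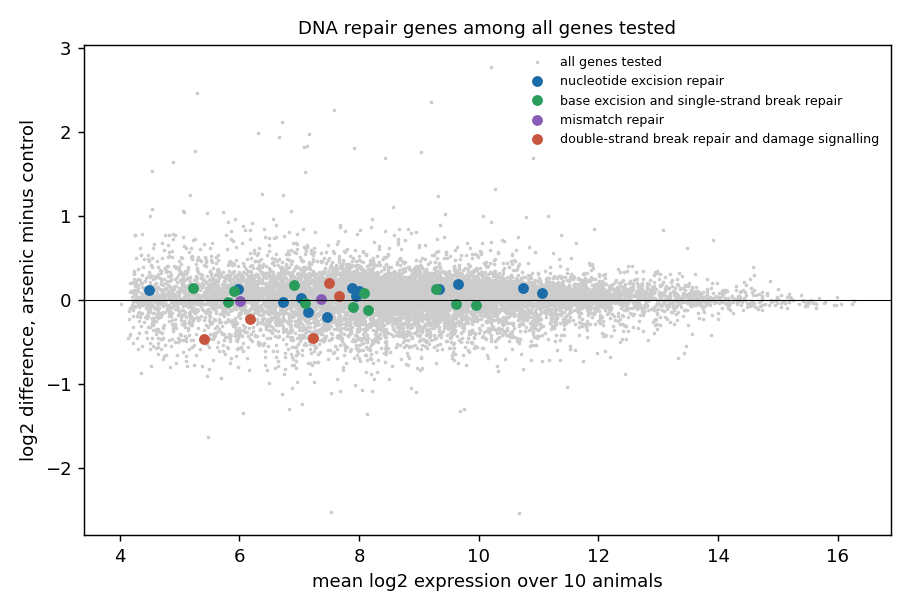
Log2 difference (arsenic minus control) against the mean log2 value over 10 animals, for all 11333 genes tested (grey) and the 31 DNA repair genes (coloured by pathway). The repair genes lie between -0.47 and 0.21, whereas all genes span -2.54 to 2.78.

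The arrays were alike as a whole, with medians of 4.11 to 4.26 and pairwise correlations of 0.990 to 0.997, and all 12 lung markers checked passed the filter. Markers of another organ differed: the mean level of 17 kidney genes, of which 9 passed the filter, ran from 3.96 to 5.68 in controls and from 5.06 to 6.57 with arsenic. Arsenic animal 4 had the highest kidney level of all 10 animals, and 8 of the 9 genes past the filter had a positive difference, up to 2.78 for Kap and 2.26 for the uromodulin gene Umod, none past the threshold. Of the 8 kidney genes below the filter, Cubn, Slc12a1 and Slc22a8 had differences of 0.84, 0.70 and 0.38, with their highest values, 7.11, 5.46 and 4.06, in arsenic animal 4. The other 5 (Slc12a3, Aqp2, Slc22a6, Calb1 and Nphs1) had differences of -0.05 to 0.02 at group means of 2.10 to 3.15. The level of 19 genes of dividing cells ran from 5.23 to 5.68 in controls and from 5.21 to 5.81 with arsenic, with 10 of the 19 past the filter and the defining marker Mki67 at 2.57 and 2.44. The levels of 7 B-cell and 7 T-cell genes, 4 of each past the filter, ran from 5.62 to 6.38 and 5.00 to 5.56 in controls and from 5.47 to 5.88 and 5.22 to 5.41 with arsenic. Adipocyte genes (5) ran from 3.54 to 5.95 and 3.61 to 6.76, and cardiac muscle genes (6) from 8.08 to 10.86 and 7.69 to 11.05, in control and arsenic lungs. Among genes past the filter, differences were negative for 8 of 10 dividing-cell, 4 of 4 B-cell and 1 of 4 T-cell genes. They were negative for 2 of 3 adipocyte, 6 of 6 cardiac muscle and 6 of 12 lung genes, where 63.2% of all genes were positive. None of these marker genes passed the threshold. The difference between the 3′ and 5′ control probe sets of Actb, a sign of RNA quality, was 0.58 to 0.65 in controls and 0.50 to 0.70 with arsenic. Apart from the fits given with the kidney level and the Actb difference as covariates, the part of these markers in the results was not tested.

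Nucleotide excision repair was measured through 13 of its 14 genes, of which 10 had a positive and 3 a negative difference, with a median of 0.11. The smallest p of the pathway was that of Ercc5, the nuclease that cuts on the 3′ side of a lesion. Ercc5 was at 7.70, 7.38, 7.73, 7.76 and 7.27 in control animals 1 to 5 and at 7.63, 7.23, 7.30, 7.30 and 7.34 in arsenic animals 1 to 5 (log2). 4 of the 5 arsenic animals lay at 7.34 or lower, as did control 5, and the groups overlapped. The difference was -0.21 (SE 0.12, 95% interval -0.47 to 0.06, limma adjusted p = 0.411). Rad23b, the partner that stabilises the damage sensor XPC, was at 10.68, 10.70, 10.69, 10.57 and 10.65 in the 5 controls, and at 10.72, 10.93, 10.86, 10.49 and 11.04 in the 5 arsenic animals. Arsenic animal 4 was the lowest of all 10 and the other 4 arsenic animals were the highest. The difference was 0.15 (SE 0.10, 95% interval -0.07 to 0.37, limma adjusted p = 0.470) by this brightest probe set. The other Rad23b probe sets past the filter had negative differences, given below.

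By their brightest probe sets, the remaining excision genes gave a tight range. Damage recognition genes had differences of 0.13 (Xpc), 0.09 (Ddb1) and 0.04 (Ddb2). The helicases of the TFIIH complex, which open the DNA around the lesion, had 0.14 (Ercc3) and 0.12 (Ercc2), and the TFIIH subunit gene Gtf2h1 had -0.14. The scaffold gene Xpa had 0.11. Ercc1 and Ercc4, whose products form the nuclease that cuts on the 5′ side, had 0.20 and -0.03. Ercc8, of transcription-coupled repair, had 0.13, and the ligase gene Lig1 0.03. A dimmer probe set of Ercc8 (1432249_a_at) went from 4.63 ± 0.80 to 5.20 ± 0.40, a difference of 0.58 (SE 0.35, limma adjusted p over probe sets = 0.406). By the brightest probe sets, the intervals of all 13 lay within a 1.5-fold change.

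Base excision and single-strand break repair was measured through 11 of its 12 genes, 5 with a positive and 6 with a negative difference (median -0.02). Xrcc1, the scaffold on which the ligation step is assembled, had the smallest p of the pathway. It was at 6.86, 6.90, 6.56, 6.76 and 7.01 in the 5 controls, and at 7.05, 7.18, 6.98, 6.85 and 6.94 in the 5 arsenic animals. The lowest arsenic value lay above 2 of the 5 controls, and control 5 above 3 of the 5 arsenic animals. The difference was 0.18 (SE 0.10, 95% interval -0.03 to 0.40, limma adjusted p = 0.379). Lig3, the ligase that works with XRCC1, was at 8.41, 8.06, 8.06, 8.45 and 8.11 in the 5 controls, and at 8.16, 8.08, 8.002, 8.10 and 8.13 in the 5 arsenic animals. Controls 1 and 4 stood above all other animals, and the difference was -0.12 (SE 0.10, limma adjusted p = 0.530). Dimmer probe sets of Lig3 past the filter had 0.06 (1423419_at), -0.04 (1431715_a_at) and 0.21 (1425865_a_at). The last went from 4.16 in controls to 4.37 with arsenic (limma adjusted p over probe sets = 0.276).

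Glycosylases, which lift out the damaged base, had differences of -0.02 (Ogg1, for oxidised guanine), 0.15 (Mutyh), 0.11 (Nthl1), -0.04 (Neil1) and -0.09 (Mpg, for alkylated bases). The abasic-site nuclease gene Apex1 had 0.13. Parp1, the main sensor of strand breaks, was at 9.64 ± 0.07 in controls and 9.60 ± 0.04 with arsenic by its brightest probe set (mean ± SD, n = 5 each). The difference was -0.04 (95% interval -0.18 to 0.10). For that probe set alone, this bounds the arsenic level between 0.881 and 1.07 of the control level. Probe set 1435368_a_at of Parp1, at 9.27 in controls and 9.39 with arsenic, had 0.12 (SE 0.08). Its probe sets 1422503_s_at and 1443573_at had -0.04 and 0.00. Parp2 had 0.08, and Polb, the polymerase that fills the gap, -0.05 by its brightest probe set.

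Polb was the gene whose probe sets disagreed most. Its brightest probe set, 1434229_a_at, and 1434230_at had differences of -0.05 and 0.11. Probe set 1439840_at was at 8.21, 7.75, 8.23, 7.44 and 7.35 in control animals 1 to 5 and at 5.87, 5.75, 5.85, 7.04 and 6.41 in arsenic animals 1 to 5. All 5 arsenic values lay below all 5 controls, with arsenic animal 4 the nearest to them. The difference was -1.61 (SE 0.27), or 3.06-fold lower, and with each of the 22495 probe sets past the filter tested on its own, a choice made after seeing the data, its limma adjusted p was 0.0380. It was the only 1 of the 54 probe sets of the listed genes to pass, where 0.44% of all probe sets did. With each gene read by its probe set of largest variance it was also the only listed gene past the threshold, where 0.538% of all genes passed. Probe set 1425371_at was at 7.52, 7.004, 7.45, 7.08 and 6.53 in the 5 controls, and at 6.28, 6.00, 6.34, 6.55 and 6.14 in the 5 arsenic animals. There arsenic animal 4 lay just above control 5 and the other 4 arsenic animals below all controls. The difference was -0.85 (SE 0.18, limma adjusted p over probe sets = 0.0845), past the threshold in 2 of 20 alternatives.

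Within each animal, the value of 1439840_at minus that of 1434229_a_at was -2.18 ± 0.36 in controls and -3.74 ± 0.57 with arsenic (mean ± SD, n = 5 each). This pair of probe sets was chosen after their values were seen, so its difference is given without a test. The call of 1439840_at held in only 2 of the 10 fits that left out 1 array, those without control replicate 5 and without arsenic replicate 4, with adjusted p of 0.0251 to 0.121 and differences of -1.83 to -1.50 over the 10. The limma adjusted p was also above the threshold when dim probe sets were kept (0.129), when the kidney level entered the fit (0.0893), with the replicate block (0.128), and without arsenic animal 4 and control animal 2 together (0.0563). Which part of the transcript each probe set reads is not given in the sources used here.

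**Figure D3:**
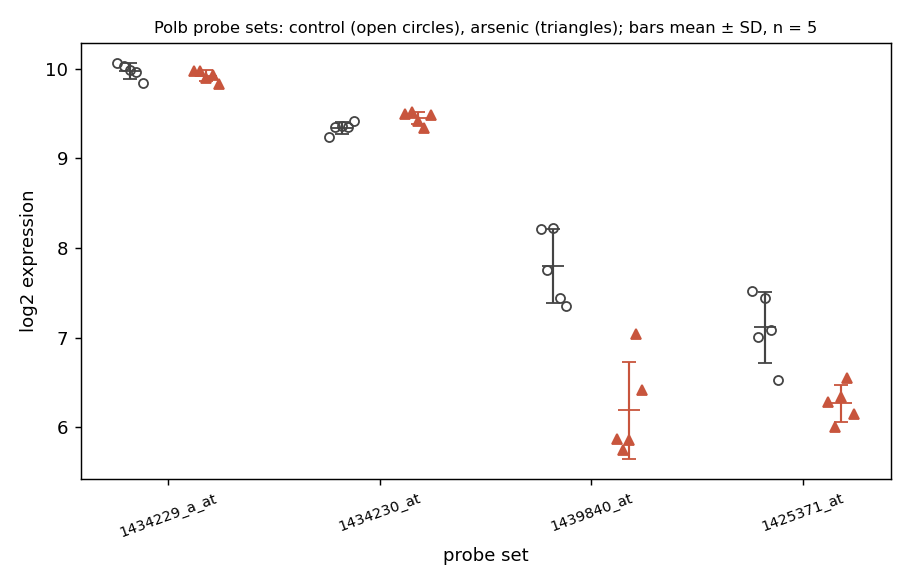
Log2 expression of the 4 Polb probe sets in each animal, controls as open circles and arsenic as triangles, with mean ± SD (n = 5 each). The pair at the left differs by -0.05 and 0.11 between groups, and the pair at the right by -1.61 and -0.85.

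Of the 12 listed genes with more than 1 probe set past the filter, 6 had differences of 1 sign in all of them and 6 did not. Apex1, Atm, Atr, Ddb2, Ercc1 and Ercc8 were in the first set. Ercc1 gave 0.20 and 0.21 by its 2 probe sets, the second (1437447_s_at) with all 5 arsenic values above all controls and a limma adjusted p over probe sets of 0.230. Ercc4, Lig3, Mpg, Parp1, Polb and Rad23b were in the other. Mpg gave 0.75 by its dimmest probe set past the filter (1442302_at, 4.24 ± 0.34 in controls and 5.00 ± 0.46 with arsenic, limma adjusted p over probe sets = 0.173), against -0.09 and 0.00 by the others. Rad23b gave 0.15 by its brightest and negative differences by all others past the filter. These were -0.08 (1450903_at), -0.01 (1455420_at) and, by its dimmest, -0.73 (1456822_at, limma adjusted p over probe sets = 0.280). In all, 8 of the 54 probe sets had an unadjusted p under 0.05, 4 higher and 4 lower, where 17.2% of all probe sets had one.

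Mismatch repair was represented by Msh6, part of the complex that recognises mispaired bases, and Pms2, part of the complex that acts on its signal. Msh6 was at 7.30, 7.24, 7.39, 7.80 and 7.06 in the 5 controls, and at 7.58, 7.25, 7.67, 7.21 and 7.15 in the 5 arsenic animals. Pms2 was at 6.01, 6.02, 5.77, 6.03 and 6.26 in the 5 controls, and at 6.14, 5.97, 5.97, 6.02 and 5.93 in the 5 arsenic animals. The groups overlapped for both genes. The differences were 0.01 (95% interval -0.32 to 0.34, limma adjusted p = 0.968) for Msh6 and -0.01 (-0.21 to 0.19, limma adjusted p = 0.954) for Pms2.

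By the brightest probe set of each gene, the largest differences of the list were in the kinases that signal double-strand breaks and stalled replication. Atm was at 7.37, 7.43, 7.68, 7.65 and 7.14 in control animals 1 to 5 and at 7.21, 6.97, 6.24, 7.68 and 6.94 in arsenic animals 1 to 5. 3 of the 5 arsenic animals lay below all controls, while arsenic animal 4 was level with the highest control. The difference was -0.45 (SE 0.22, 95% interval -0.94 to 0.05, limma adjusted p = 0.359). Atr was at 5.45, 5.10, 5.83, 6.51 and 5.32 in the 5 controls, and at 5.17, 4.80, 5.28, 5.70 and 4.94 in the 5 arsenic animals. Control 4 was the highest of all animals and arsenic animal 4 the highest of its group, and the groups overlapped. The difference was -0.47 (SE 0.26, 95% interval -1.03 to 0.10, limma adjusted p = 0.394), and it was -0.25 (limma adjusted p = 0.620) without control replicate 4.

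Atm and Atr each had a second probe set past the filter, of the same sign as the first, whereas Prkdc had none. That of Atr (1438921_at) went from 4.75 ± 0.22 to 4.33 ± 0.18, a difference of -0.41 (SE 0.12, limma adjusted p over probe sets = 0.168), and that of Atm (1428830_at) had -0.18 (adjusted p = 0.603). Prkdc, the kinase of end joining, was at 6.30 ± 0.20 in controls and 6.08 ± 0.25 with arsenic (n = 5 each), a difference of -0.22 (SE 0.14, limma adjusted p = 0.439). The genes of the Ku pair that binds broken ends before PRKDC had 0.05 (Xrcc5) and 0.21 (Xrcc6). In arsenic animal 4, the animal with the highest kidney level, Atm, Atr and Prkdc were each the highest of the arsenic group by their brightest probe sets. So was the second probe set of Atm. By the second probe set of Atr, arsenic animal 1 was the highest of the group, at 4.60, against 4.40 in arsenic animal 4.

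Without arsenic replicate 4 the differences of the kinases, by their brightest probe sets, were -0.61 (Atm), -0.60 (Atr) and -0.31 (Prkdc), with limma adjusted p of 0.166, 0.247 and 0.233. That of the second Atr probe set was -0.43 there (limma adjusted p over probe sets = 0.133), beside -0.41 with all arrays. Other arrays made the differences smaller when left out. That of Atm was -0.26 without arsenic replicate 3, and that of Prkdc was -0.14 without arsenic replicate 2 or without control replicate 3, none past the threshold. When the kidney level entered the fit the differences of Atm, Atr and Prkdc were -0.74, -0.88 and -0.40, with limma adjusted p of 0.105, 0.0905 and 0.125. The kidney level was itself higher with arsenic (mean 5.57, against 4.87 in controls), so it and the exposure cannot be fully told apart there. In that fit 9 of the 31 genes had an unadjusted p under 0.05, 5 higher (Ercc1, Ercc8, Rad23b, Xrcc1 and Apex1) and 4 lower (Gtf2h1, Atm, Atr and Prkdc), where 25.4% of all genes had one. None of the 9 passed over all genes, where 0.0353% did, and their smallest limma adjusted p was 0.0877. Without arsenic replicate 4 the count was 5 of 31 (Rad23b, Xrcc6, Atm, Atr and Prkdc), where 19.2% of all genes had an unadjusted p under 0.05. Without arsenic replicate 4 and control replicate 2 it was 4 of 31 (Xpc, Rad23b, Atm and Atr), beside 20.9% of all genes.

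**Figure D4:**
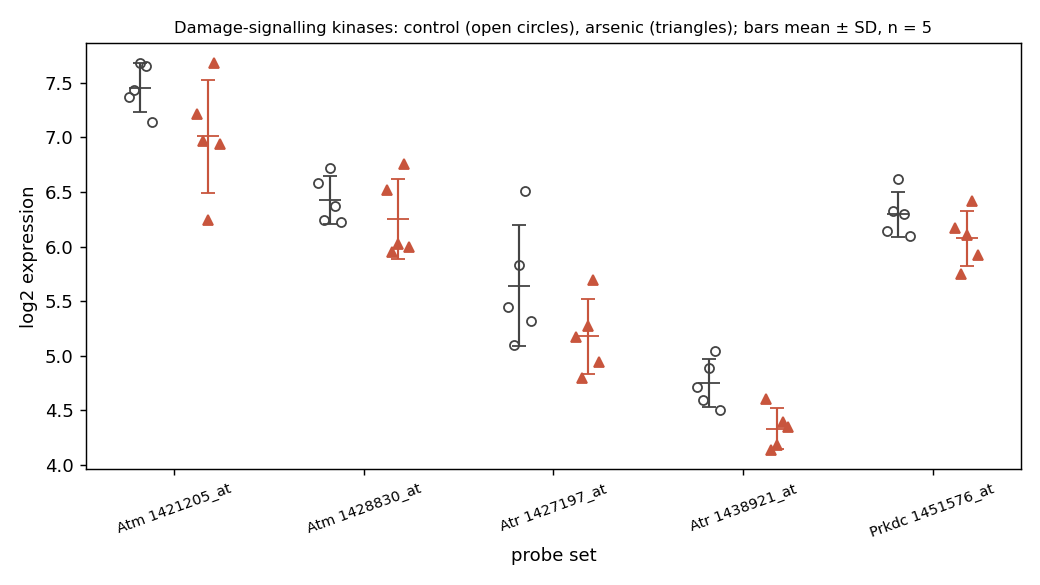
Log2 expression of the probe sets past the filter for Atm, Atr and Prkdc in each animal, controls as open circles and arsenic as triangles, with mean ± SD (n = 5 each). Arsenic means are lower in all 5 probe sets, by -0.18 to -0.47, and the groups overlap in each.

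The 6 genes too dim for the filter were Ercc6, the transcription-coupled repair ATPase, Ung, the uracil glycosylase, Brca1, Brca2 and Chek1, which act in homologous recombination and the replication checkpoint, and Mgmt, the only direct reversal gene of the list. The brightest probe set of Ercc6 was at 3.51 ± 0.51 in controls and 3.23 ± 0.26 with arsenic, above the filter in 1 animal. Those of Ung were at 2.74 ± 0.16 and 2.63 ± 0.03, and of Brca1 at 2.52 ± 0.05 and 2.57 ± 0.15. Those of Brca2 were at 2.40 ± 0.07 and 2.35 ± 0.12, of Chek1 at 2.96 ± 0.04 and 2.92 ± 0.02, and of Mgmt at 2.44 ± 0.03 and 2.40 ± 0.01. These values lie near the bottom of the table, where a difference may not show.

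Arsenic animal 4 was the highest or lowest of its group for 17 of the 31 genes, 14 times as the lowest, and control animal 4 for 16, 8 times as the highest. The other animals were at an extreme for 8 to 14 genes. These counts were made over the listed genes only, which share the same arrays. Without the share over all genes they cannot be read as a trait of these genes.

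**Figure D5:**
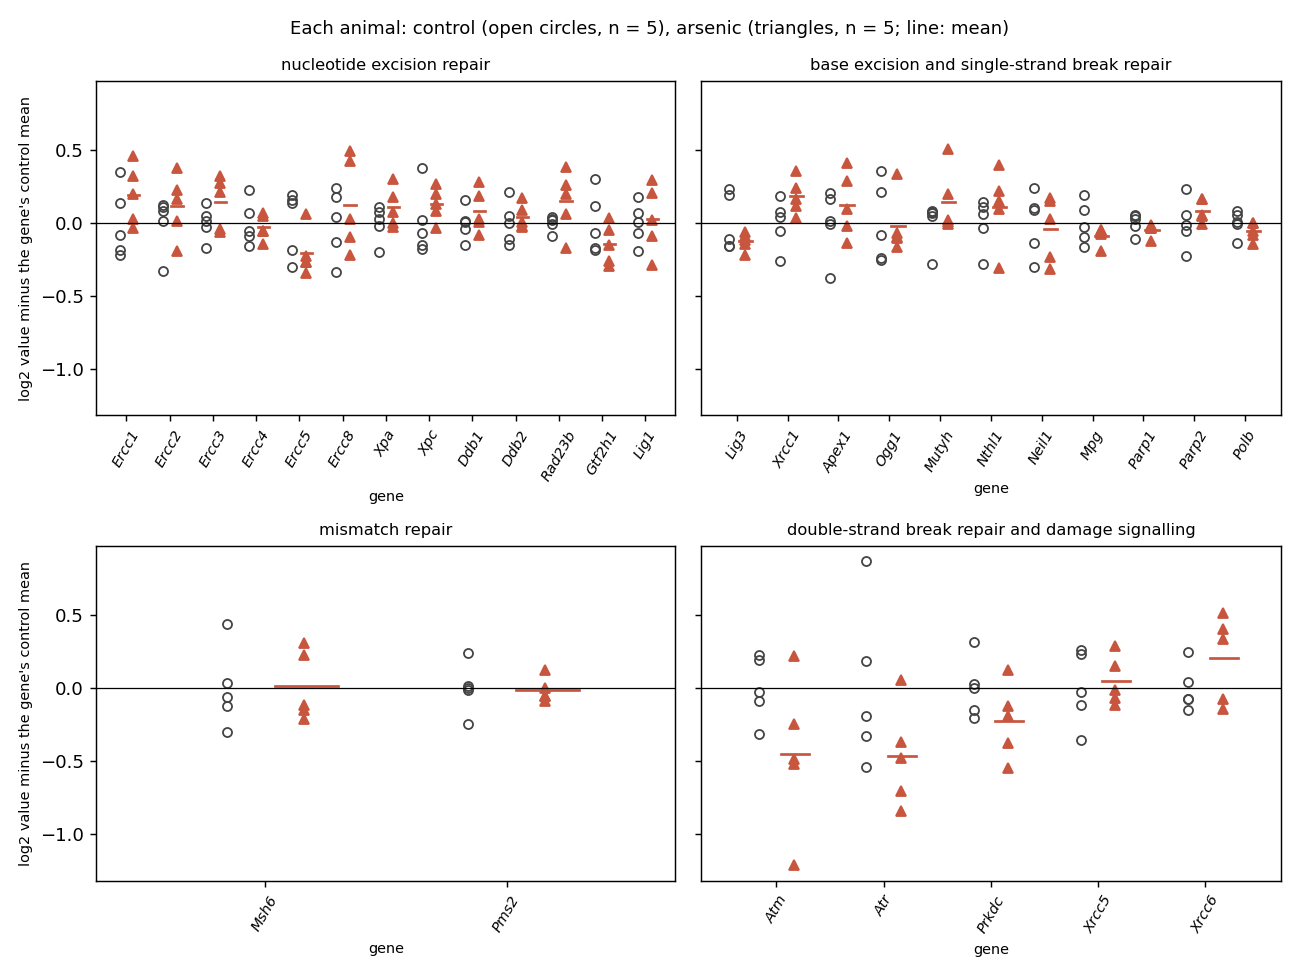
Log2 value of each animal minus the gene's control mean, for the 31 DNA repair genes in 4 panels by pathway; open circles are the 5 controls, triangles the 5 arsenic animals and short lines the arsenic means. The groups overlap for every gene, and Atm and Atr show the widest spread.

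Of 70 further DNA repair genes, a list of the same pathways with translesion synthesis and the Fanconi and checkpoint genes added, 60 had a probe set and 43 passed the filter. None of the 43 passed over all genes with limma, beside 0.476% of all genes. At an unadjusted p under 0.05 there were 4, 1 higher and 3 lower, beside 15.7% of all genes. In 1 the arsenic values lay above all controls, beside 2.82%. Their median difference was 0.054, and 26 were positive. The 6 with the smallest p were Polk, a translesion polymerase (7.24 ± 0.19 to 6.78 ± 0.31, difference -0.46, limma adjusted p = 0.222), Rpa1, the large subunit of the single-strand binding protein (11.29 ± 0.11 to 11.50 ± 0.05, difference 0.21), and Uvssa, of transcription-coupled repair (7.03 ± 0.44 to 6.25 ± 0.58, difference -0.78). Then followed Rad50, of the complex that senses broken ends (7.69 ± 0.08 to 7.38 ± 0.25, difference -0.31), Rif1, which steers the choice of break repair (7.14 ± 0.24 to 6.66 ± 0.52, difference -0.48), and Gtf2h4, a TFIIH subunit (8.58 ± 0.25 to 8.84 ± 0.14, difference 0.26). Limma adjusted p of the last 5 ran from 0.225 to 0.339. The choice of probe set moved some of these differences: Uvssa had -0.35 by the mean of its probe sets, Polk had -0.32 by the mean and -0.19 by the probe set of largest variance, and Rif1 had -0.89 by the latter. Rpa1 was the gene whose arsenic values all lay above the controls, at 11.41, 11.37, 11.15, 11.29 and 11.22 in controls and 11.43, 11.53, 11.48, 11.49 and 11.57 with arsenic.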

How the data were processed

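The authors deposited log2 expression values of 45101 probe sets for 10 arrays. The submitters' processing notes name GCRMA (background correction by probe sequence, normalization between arrays, summary per probe set), version not given in the sources used here. The log2 scale was read from the range of values, 0.619 to 16.3. Groups and replicate numbers came from the titles; 1 number shared by all arsenic titles and another by all controls may mark cages or batches, and these and the exposure cannot be told apart. The labels number the animals separately, so replicates are animals.

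Gene symbols came from the platform annotation (34958 probe sets with 1 symbol, 932 with several, 9211 not listed); RefSeq gave all 37 listed symbols unchanged. Of the probe sets past the filter, 19501 had 1 symbol. The main test was limma 3.58.1 (lmFit, then eBayes; R 4.3.3) with group as the only term, 2.82 prior degrees of freedom and Benjamini-Hochberg adjustment over 11333 genes. The fit was tested on simulated data. The listed genes, the further repair genes and the marker lists were chosen with earlier results of these data known. Genes given in every animal were the 2 with the smallest p of each pathway; Polb, Prkdc and the second probe sets were described after their values were seen. Alternatives were other filters, probe set rules, normalizations, eBayes settings, array weights, a replicate block, covariates and leaving out arrays. Figures were drawn with matplotlib 3.10.9.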

Additional observations from a re-analysis of the deposited data

Results flagged for a closer look

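In 5 of the 62 groups of 5 animals examined (31 genes in 2 groups), 1 animal stood far from the other 4, by a gap of more than 0.71 of the group's range. Chance alone gives about 1 in 20 for a single group, but these groups share the same 10 arrays. The rule was not run over all genes, so the count cannot be read as a trait of the listed genes. Ercc2 was at 4.10 in control animal 1, below the 4.45 to 4.56 of the others. Mutyh was at 4.87 in control animal 3, below 5.20 to 5.23. Ogg1 was at 6.16 in arsenic animal 5, above 5.66 to 5.76. Mpg and Parp1 were at 7.76 and 9.52 in arsenic animal 4, below 7.88 to 7.90 and 9.61 to 9.63.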

How the results depend on the processing

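Over 24 alternatives, the count of the listed genes past the threshold was 0 in 22. In 1 of these, the mean of a gene's probe sets, Polb had -0.60 and lay just above the threshold (limma adjusted p = 0.0546). The count was 1 with the probe set of largest variance (Polb, limma adjusted p = 0.0342), a rule that favours probe sets differing between the groups. Testing each probe set on its own, added after seeing the data, also gave 1, by the same Polb probe set. The count over all genes was 54, and 9 to 41 without 1 array (below 54 by more than 1.5 times without any 1 array but arsenic replicate 1), 11 without arsenic animal 4 and control animal 2, 19 without a filter, 4 with the kidney level as covariate, 140 with the Actb difference as covariate (where Polk passed, -0.51, adjusted p = 0.0404) and 5 with the replicate block. The numbers do not pair the animals: deviations of same-numbered animals correlated at -0.33 to 0.25, and with the replicate block no listed gene passed. The median difference was 0.045, and 0.014 without a filter (all genes -0.010), 0.028 to 0.070 without 1 array, 0.13 with the filter at the 75th percentile, which kept 7 of the genes, and 0.11 with median centring, which moved the median of all genes from 0.057 to 0.12.

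Of the 31 genes, 19 kept their sign in every alternative that kept them. Signs turned for probe set choice in Rad23b (-0.17 by the mean of probe sets, -0.73 by the largest variance), Lig3 (0.0284, 0.208), Mpg (0.22, 0.75) and Parp1 (0.0104, 0.00189). With quantile normalization Ercc4 had 0.0281, Ogg1 0.0631, Neil1 0.00332 and Pms2 0.0704; with median centring Ercc4 0.0372, Ogg1 0.0441, Neil1 0.0226, Parp1 0.0192, Polb 0.00828 and Pms2 0.0509. With array weights Ogg1 had 0.0186 and Pms2 0.0263. With the kidney level Ercc4 had 0.0335, Ogg1 0.0583, Neil1 0.146, Parp1 0.0154 and Msh6 -0.0762, and with the Actb difference Ogg1 0.00978 and Msh6 -0.0154. Without arsenic animal 4 and control animal 2 Ercc4 had 0.0590, Ogg1 0.0704 and Neil1 0.0311. Without 1 array the ranges that crossed 0 were -0.0647 to 0.0306 (Ercc4), -0.107 to 0.0704 (Ogg1), -0.116 to 0.0282 (Neil1), -0.0367 to 0.108 (Lig1), -0.0606 to 0.124 (Msh6), -0.0740 to 0.0483 (Pms2) and -0.0390 to 0.116 (Xrcc5). Apart from the probe set choice, the cause was not tested. Dim probe sets limit what 6 of the 37 genes can show.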
